A study of Mus musculus with 4 samples.

Results

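The Clec genes are the mouse genes named for the C-type lectin fold, and they were followed here in CD45+ immune cells of control skin and of skin tumors. The members are the symbols of the feature lists that start with Clec and a digit and hold at least 50 unique molecular identifiers (UMIs, 1 per captured RNA molecule) over all deposited cells. Of the 31053 genes counted, 30 symbols start that way and 24 reached the minimum. Just inside it were Clec4b2 with 67 UMIs and Clec2e with 80, and just outside it were Clec12b with 41 and Clec18a with 32. Clec3b had 24 UMIs, Clec14a 6, Clec2h 1 and Clec3a 0.

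Droplet 3' RNA libraries were made from 4 samples, 2 control skins and 2 skin tumors. The control skins came from C57BL/6 mice without injected cells. The tumors grew for about 2 weeks under the flank skin of C57BL/6 mice, aged 8 to 10 weeks at injection, from cells of the 2323 line. That line was established from a mouse model of skin cancer in its escape phase, in which the keratin 14 promoter, active in keratinocytes, drives an inducible Cre. All tumors therefore stand for 1 line in hosts with an intact immune system. The age of the control mice and the sex of each mouse are not given in the sources used here. All 4 tissues were digested for 2 h with collagenase and sorted for live CD45+ cells.

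C-type lectin receptors bind sugars, lipids or proteins on microbes and on damaged or neighbouring cells. One branch signals through the adaptors Fcer1g or Tyrobp to the kinase Syk and the scaffold Card9, and turns on inflammatory cytokines in macrophages, neutrophils and dendritic cells. Another branch carries an inhibitory tail motif (ITIM) that recruits the phosphatases Ptpn6 and Ptpn11. The Clec2 proteins are ligands that killer cells read through receptors of the Klrb1 family. A few genes with the name, such as Clec16a, are not cell surface receptors.

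Of the 24 members, 20 lie on chromosome 6 and 4 elsewhere. On GRCm38 with the GENCODE annotation, 9 members (Clec4a1, Clec4a3, Clec4a4, Clec4b1, Clec4a2, Clec4b2, Clec4n, Clec4d and Clec4e) sit side by side at chr6:122921848-123289870, a span of 368.0 kb called the Clec4 cluster below. Another 8 (Clec2i, Clec2g, Clec2e, Clec2d, Clec12a, Clec1b, Clec9a and Clec1a) lie at chr6:128887588-129452000 in the natural killer gene complex. The 250 bases before the RefSeq start are shown for 6 genes of the Clec4 cluster, the pair with the highest levels in the family (Clec4d and Clec4e) and 4 genes that were lower in the cDC2 of tumors (Clec4a1, Clec4a3, Clec4b1 and Clec4a2). Capitals mark GAGGAA or its reverse complement, the core bound by the myeloid factor PU.1. For Clec4a3, which has a pair of listed starts, the first is shown.
Clec4d (GRCm38.p6, chr6:123261857-123262106, plus strand): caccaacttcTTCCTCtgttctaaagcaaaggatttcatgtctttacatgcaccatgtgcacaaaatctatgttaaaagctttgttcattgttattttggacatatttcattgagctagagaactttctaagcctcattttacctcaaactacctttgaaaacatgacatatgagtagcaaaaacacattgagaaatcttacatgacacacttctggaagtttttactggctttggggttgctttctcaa
Clec4e (GRCm38.p6, chr6:123289872-123290121, minus strand): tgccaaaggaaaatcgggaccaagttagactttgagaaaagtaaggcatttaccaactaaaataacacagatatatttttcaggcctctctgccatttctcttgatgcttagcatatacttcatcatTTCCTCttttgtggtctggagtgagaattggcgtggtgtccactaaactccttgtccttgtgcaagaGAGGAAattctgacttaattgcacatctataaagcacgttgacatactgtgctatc
Clec4a1 (GRCm38.p6, chr6:122921598-122921847, plus strand): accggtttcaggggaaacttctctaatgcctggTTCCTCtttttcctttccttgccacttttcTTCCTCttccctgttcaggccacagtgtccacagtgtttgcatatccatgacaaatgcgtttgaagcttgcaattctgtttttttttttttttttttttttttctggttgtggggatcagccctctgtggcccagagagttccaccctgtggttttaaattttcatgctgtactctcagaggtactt
Clec4a3 (GRCm38.p6, chr6:122952265-122952514, plus strand): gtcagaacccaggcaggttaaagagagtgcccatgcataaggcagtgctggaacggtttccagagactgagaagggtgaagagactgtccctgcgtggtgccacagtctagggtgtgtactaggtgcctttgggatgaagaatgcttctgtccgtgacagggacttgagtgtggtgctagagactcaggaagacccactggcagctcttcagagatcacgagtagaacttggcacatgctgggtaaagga
Clec4b1 (GRCm38.p6, chr6:123049712-123049961, plus strand): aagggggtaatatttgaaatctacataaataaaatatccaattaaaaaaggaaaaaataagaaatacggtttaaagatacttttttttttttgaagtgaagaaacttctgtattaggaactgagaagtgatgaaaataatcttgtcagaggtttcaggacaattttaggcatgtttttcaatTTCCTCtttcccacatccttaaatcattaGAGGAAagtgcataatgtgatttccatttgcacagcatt
Clec4a2 (GRCm38.p6, chr6:123122440-123122689, plus strand): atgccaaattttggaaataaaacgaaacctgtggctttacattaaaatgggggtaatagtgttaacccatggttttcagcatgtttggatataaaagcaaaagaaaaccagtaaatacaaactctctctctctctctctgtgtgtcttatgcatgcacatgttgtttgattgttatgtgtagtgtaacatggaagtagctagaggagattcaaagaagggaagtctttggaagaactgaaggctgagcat
GAGGAA, searched on both strands, was found once before Clec4d, at 2 places before Clec4e, Clec4a1 and Clec4b1, and not before Clec4a3 and Clec4a2 in these windows. The window of the other start of Clec4a3 holds it. Over the 20 members with a listed start it was in 11 of 22 windows, beside 23.3% of the 32851 windows of all genes. The motif TTGCNNAA of the CEBP factors was in 4 of the 22 windows (18.2%), that of Clec4e among them, beside 9.56% of all windows. The 2 motifs overlapped in 0 of the members' windows. These matches describe the letters of the windows and were not tested for binding.

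Levels are given as UMIs per 10000 UMIs of a cell type in a library. Counts of 3' ends do not scale with the length of the mature transcript. Whether intronic reads were counted is not given in the sources used here, so levels of different genes are compared with that limit. Cell types were gated by marker genes, none of them a Clec gene, and values are given where a library held at least 10 cells of a type. After filters and removal of doublets 12395 cells were used, 2892 and 2994 of the control skins and 4555 and 1954 of the tumors, with medians of 10276, 10857, 12062 and 13100 UMIs. Between 28.2% and 41.1% of the cells of a library met no gate. The libraries shared between 1 and 7 cell barcodes pairwise. The tumor libraries were rich in C1q macrophages (35.3% and 24.1% of cells, against 1.66% and 5.21% in control skin), whereas Langerhans cells (368 and 330 cells against 1 and 6), dendritic epidermal T cells (510 and 593 against 12 and 19) and type 2 innate lymphoid cells (146 and 119 against 9 and 12) were few in them. Cxcr2 and Ms4a7, which no gate used, fitted the names of the neutrophil and C1q macrophage gates. Cxcr2, a chemokine receptor of neutrophils, stood between 2.59 and 6.43 in the neutrophil gate. It was at 0.0645 or less in the gates of C1q macrophages, monocytes, cDC1, cDC2 and CD8 T cells. Ms4a7 of macrophages stood between 2.74 and 5.66 in C1q macrophages and at 0.411 or less in the others of these gates. Arg1 macrophages held Ms4a7 at 5.59 in control skin 2 and at 2.71 and 1.06 in tumors, with Cxcr2 at 0.225 or less. The cDC2 gate was less clearly set apart. The paper lists Mgl2, Sirpa and Irf4 for cDC2. Mgl2 and Irf4 were higher there than in C1q macrophages in all 4 libraries. Sirpa was lower there in all 4 (2.10, 1.62, 1.80 and 1.59 against 2.80, 3.39, 3.91 and 2.97). Mrc1 stood at 6.27 and 6.61 in cDC2 of control skin, beside 6.43 and 12.6 in C1q macrophages. In tumors it was at 1.14 and 1.35 beside 7.27 and 7.52.

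**Figure D1:**
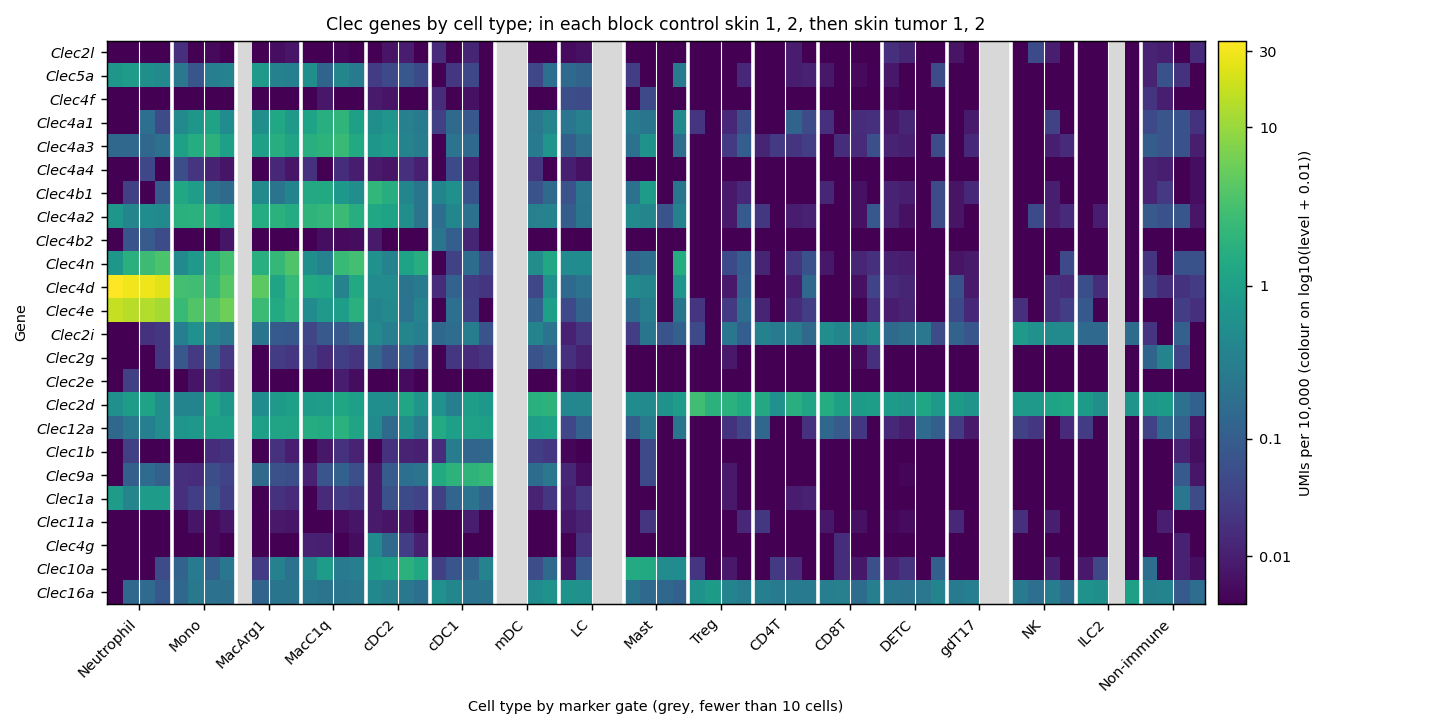
Level of each of the 24 Clec genes (rows) in each cell type (blocks of 4 columns, control skins 1 and 2 and then tumors 1 and 2), as UMIs per 10000 on a log colour scale, with grey for fewer than 10 cells. The brightest cells are Clec4d and Clec4e in neutrophils, where all 4 libraries lay above 24 and above 11.

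Groups of cell types shared their leading Clec genes. By mean, Clec4d, Clec4e and Clec4n led in neutrophils, monocytes and Arg1 macrophages. Clec2d, Clec16a and Clec2i led in T cells, NK cells and innate lymphoid cells. Of the 24 members, 11 reached a mean of 1 UMI per 10000 in some cell type seen in at least 2 libraries, 13 did not, and 6 of these stayed under 0.1. The sum over the members was highest in neutrophils (42.7 to 56.0 over the 4 libraries), followed by monocytes (12.7 to 18.6), Arg1 macrophages (13.0 to 15.2, 3 libraries) and C1q macrophages (12.5 to 15.9), whose ranges overlapped. T cells, NK cells and innate lymphoid cells of every library summed to between 1.15 and 3.65. For 5 members (Clec4d, Clec4e, Clec9a, Clec1a and Clec4f) every library of the leading cell type lay above every library of the next one. For the other 19 the ranges of the first 2 cell types overlapped.

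Neutrophils were marked by the receptors of the activating branch. Clec4d (MCL, a receptor for mycobacterial glycolipid that pairs with Fcer1g) stood at 35.1 and 29.6 in neutrophils of control skin and at 28.8 and 24.1 in those of tumors. Monocytes came next with 3.06, 2.86, 2.19 and 4.01, so that the means of the 2 cell types differed 9.71-fold. Clec4e (Mincle, its partner, which also senses dead cells) followed with 16.9, 14.5, 13.8 and 11.6 in neutrophils and 2.42, 3.85, 3.77 and 5.80 in monocytes. For both genes the neutrophils of the 2 tumors lay a little below those of both control skins. Neither change passed the edgeR test described below (adjusted p = 0.994 for each), and control skin 1 held 14 neutrophils. After each cell was thinned to 1000 UMIs, which left out no cell, 92.8% to 93.0% of the neutrophils of a library still held a Clec4d UMI and 62.6% to 66.3% a Clec4e UMI. In CD8 T cells, which should lack both genes, no thinned cell held either one. At full depth 0.0% to 5.13% of the CD8 T cells of a library held Clec4d, against 98.2% or more of the neutrophils, whose median depth was lower (3812 UMIs, against 11392 in CD8 T cells). Clec5a (MDL-1, which couples to Tyrobp) had its highest mean in neutrophils as well, at 0.749, 0.876, 0.564 and 0.473, but its range overlapped that of Arg1 macrophages (0.804, 0.354 and 0.331, without control skin 1). Clec1a, a receptor for fungal melanin, stood at 0.899, 0.402, 0.870 and 0.891 in neutrophils and at 0.211 or less in cDC1, the next cell type. These Clec1a levels rest on 86 UMIs.

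Clec4a1, Clec4a3 and Clec4a2 were highest in C1q macrophages. Clec4a2 (DCIR1, with an ITIM) had the highest mean over the 4 libraries there, at 1.99, 2.19, 2.60 and 1.60, although Clec4n stood above it in tumor 2 at 3.05. Next by mean was Clec4a3 (DCIR3) at 1.69, 1.96, 2.47 and 1.41. Clec4a1 (DCIR4) stood at 1.13, 1.71, 2.04 and 1.03. In each of the 3 genes tumor 1 was the highest library and tumor 2 the lowest, with the control skins in between. Monocytes held less Clec4a1 (0.472 to 1.08) and similar Clec4a3 (0.996 to 1.88) and Clec4a2 (1.13 to 1.84). Clec4e had the highest mean of the members in monocytes. In Arg1 macrophages Clec4d had it, at 4.44 in control skin 2 (12 cells) and 1.16 and 2.36 in tumors, but in both tumors Clec4n stood above it (2.27 and 3.64). Clec4b1 (DCAR, which pairs with Fcer1g) had its highest mean in cDC2 (1.11), at 2.20 and 1.60 in control skin. C1q macrophages followed closely (mean 1.025, from 0.539 to 1.42) with overlap of the ranges, and stood above cDC2 in both tumors. Clec4a4 (DCIR2) and Clec4b2 (DCAR1) were near the limit of detection: Clec4a4 was highest in monocytes at 0.0616 or less (13 UMIs) and Clec4b2 in cDC1, at 0.221 and 0.106 in control skin and 0.0135 and 0 in tumors (23 UMIs). Members of this cluster resemble each other, and 26.2% of the 31-base words in the last 500 bases of the Clec4b1 transcripts also occur in Clec4a2, against at most 7.38% for the other genes of the cluster, so part of the reads of this pair may have been shared or dropped in counting.

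Clec12a (MICL, an ITIM receptor for uric acid crystals of dead cells) was led by C1q macrophages (1.56, 1.47, 1.80 and 1.17) and reached 1.45, 0.983, 1.05 and 1.02 in cDC1, with overlap of the ranges. Clec9a (DNGR-1, which binds the actin of dead cells) was the leading member of cDC1, the dendritic cells of cross-presentation, at 1.40, 1.93, 2.03 and 2.31. The next cell type, mature dendritic cells, was measured in the tumors alone and held 0.167 and 0.240. At full depth 83.3% to 90.6% of the cDC1 of a library held a Clec9a UMI, and 0 of 494 CD8 T cells pooled over the 4 libraries. That count allows a share of cells with a UMI of up to 0.607%, which covers counting error only and is no limit on cells that express the gene. Clec1b (CLEC-2, the podoplanin receptor of platelets) had its highest mean in cDC1 too, at 0.0184, 0.306, 0.135 and 0.149 (60 UMIs). The annotated genes Clec1b and Clec9a overlap by 0.474 kb on the same strand (chr6:129408862-129409335), and 13.5% of the end words of Clec1b occur in Clec9a, so these UMIs cannot be assigned with certainty. Clec10a (MGL1, a receptor for galactose-type sugars) had the highest mean of the members in cDC2, at 0.853, 1.02, 1.90 and 1.30. In both control skins Clec4b1 and Clec4a2 stood above it there, as did Clec4n in tumor 2 at 1.60. Mast cells came next by mean, at 1.47, 1.43, 0.506 and 0.521, above cDC2 in both control skins and below them in both tumors. C1qa, a macrophage gene, was also counted in mast cells (1.37, 2.91, 0.0723 and 3.59), and the part of RNA from other cells in the mast cell values was not tested. In plasmacytoid dendritic cells, gated in sufficient number in tumor 1 alone (15 cells), Clec10a stood at 2.71, Clec12a at 1.41 and Clec9a at 1.12.

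Lymphoid cells carried mainly the ligands of the killer cell receptors. Clec2d (Clr-b, the ligand of the inhibitory receptor Klrb1b) was the leading member in regulatory T cells (2.90, 1.91, 1.82 and 1.47), CD4 T cells (1.36, 0.621, 1.71 and 1.16), CD8 T cells (1.57, 1.04, 0.847 and 0.939), NK cells (0.826, 0.816, 1.12 and 1.21), dendritic epidermal T cells (0.837, 0.689, 1.23 and 0.823) and the gamma delta T cells of control skin (0.838 and 0.664). It led in mature dendritic cells of the tumors too (1.75 and 1.98), and the lowest value of any gate was 0.116, in non-immune cells of tumor 2. Clec2i (Clr-g) had its highest mean in NK cells, at 0.786, 0.605, 0.488 and 0.459, and CD8 T cells overlapped at 0.534, 0.414, 0.329 and 0.459. Clec2g and Clec2e stayed low. Clec2g was highest in the non-immune cells that came through the sort, at 0.127 and 0.377 in control skin and 0.0452 and 0 in tumors, and Clec2e summed to 66 UMIs over all cells used (3, 3, 48 and 12).

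Clec16a, a gene of autophagy and mitochondrial clearance, was found at similar levels in Langerhans cells (0.644 and 0.611 in control skin) and type 2 innate lymphoid cells (0.632 and 0.577). A higher value of the latter in tumor 2, 1.02, rests on 6 UMIs. In these epidermal dendritic cells Clec4n followed with 0.506 and 0.525. Clec4f, known from the macrophages of the liver, was found in Langerhans cells at 0.0613 and 0.0570. Clec4g (LSECtin, known from sinusoidal endothelium) was found in cDC2, at 0.494 and 0.160 in control skin and 0.0348 and 0.0105 in tumors. Clec2l and Clec11a did not exceed 0.0526 in a gated cell type with at least 2 libraries.

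The comparison of skin tumors with control skins asks how each cell type changed in the tumor. UMIs were summed per cell type and library and fitted across all genes by the quasi-likelihood method of edgeR. The p-values were adjusted by Benjamini and Hochberg within each cell type, with a threshold of 0.05. Changes are log2 fold changes of tumor over control skin with the standard error (SE), and each rests on 2 libraries a group. With 2 against 2, an exact permutation test of a single gene cannot go below p = 0.333, so it was not used. Of the 24 members, 18 passed the filter on low counts in at least 1 of the 12 cell types fitted, and the other 6 (Clec2l, Clec4f, Clec4b2, Clec2e, Clec1b and Clec11a) did not. Over 83 tests of a member in a cell type, 2 were called higher and 11 lower in tumors. The calls fell on 10 members and 5 cell types. Of the 11 lower calls, 8 were in immune cell types and 3 in the gate of non-immune cells. The share of all genes called lower differed between these gates. It was 17.4% in non-immune cells, 7.6% in cDC2, 3.3% in cDC1 and 0.327% in monocytes. Called higher were 4.9% in cDC2 and 0.278% in C1q macrophages. A share over all 12 cell types was not computed, so the counts of 2 and 11 have no common background.

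Clec4n (Dectin-2, a receptor for mannan that signals through Fcer1g) was the member that rose. In C1q macrophages it stood at 0.569 and 0.367 in control skin and at 2.43 and 3.05 in tumors. Both tumors lay above both control skins, and the log2 fold change was 2.40 (SE 0.29, edgeR's quasi-likelihood test, adjusted p = 0.0299). It was 1 of 17 members tested there, and 0.278% of all genes of this cell type were called higher. In cDC2 it stood at 0.614 and 0.370 against 1.14 and 1.60, a log2 fold change of 1.26 (SE 0.31, adjusted p = 0.0466), with 1 of 15 members and 4.9% of all genes called higher. The same order was seen in monocytes (0.493 and 0.8003 against 1.90 and 3.08) and in neutrophils (0.749 and 1.75 against 2.70 and 3.43), and neither passed the test. The changes there were 1.81 (SE 0.34, adjusted p = 0.0687) and 1.13 (SE 0.45, adjusted p = 0.994). Arg1 macrophages, with 3 libraries and no fit, held 1.67 in control skin 2 and 2.27 and 3.64 in tumors. The share of C1q macrophages with a Clec4n UMI was 33.3% and 30.1% against 82.6% and 87.9% at full depth, and 6.25% and 3.21% against 19.3% and 23.4% after thinning to 1000 UMIs. In the C1q gate, 2 of 17 other C-type lectins tested were called lower and 0 higher. Among all genes 26 of 11501 were called lower there. Cd209d went from 0.435 and 0.483 to 0.00348 and 0.0129. Cd207 went from 4.41 and 0.902 to 0.0177 and 0.0169. The part of such shifts in the Clec4n values of this gate was not tested. C1qa of macrophages stood at 18.3 and 17.3 against 31.6 and 22.2 in C1q macrophages. It was at 0.150 and 0.219 against 0.706 and 0.668 in neutrophils and at 0.273 or less in cDC2. Both of these gates exclude cells rich in C1q RNA, so the low levels were set by the gates. The part of macrophage RNA in their Clec4n values was not tested. The call in C1q macrophages was lost without control skin 1 (2.71, adjusted p = 0.107) and without control skin 2 (2.10, adjusted p = 0.267), and the one in cDC2 likewise (1.63, adjusted p = 0.0888, and 0.90, adjusted p = 0.235). The cDC2 call was lost as well with a replicate block (1.26, adjusted p = 0.0721), with all deposited cells (1.11, adjusted p = 0.132) and with doubled gate minimums (1.16, adjusted p = 0.0790).

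Clec4b1 was lower in tumors in 3 of the cell types. In cDC2 it fell from 2.20 and 1.60 to 0.414 and 0.231 (log2 fold change -2.71, SE 0.30, adjusted p = 0.00754). In monocytes it fell from 1.29 and 0.969 to 0.207 and 0.158 (-2.64, SE 0.27, adjusted p = 0.0206), and in cDC1 from 0.386 and 0.598 to 0.0675 and 0 (-3.44, SE 0.63, adjusted p = 0.0324). Control skins and tumors did not overlap in any of the 3, which is no evidence beyond the calls. The call in monocytes was 1 of 14 members, where 0.327% of all genes were called lower, and the call in cDC1 was 1 of 7, where 3.3% were. In C1q macrophages the levels were 1.38 and 1.42 against 0.762 and 0.539. That change of -1.32 (SE 0.21) did not pass edgeR's test (adjusted p = 0.0558). The monocyte gate takes monocyte-like cells, which differed between the tissues. Their median of MHC class II UMIs was 5 in control skin and 69 in tumors. The level of H2-Aa was 32.6 and 27.4 against 34.1 and 43.7. Of 13 other C-type lectins tested there, 1 (Cd207) was called lower and 0 higher. The part of these differences in the fall of Clec4b1 was not tested. The calls in cDC2 and monocytes held without each library in turn, with changes between -3.20 and -2.47 over their alternatives. In cDC1, where tumor 2 held 12 cells and no Clec4b1 UMI, the call was lost without control skin 2 (-3.23, adjusted p = 0.137) and with a replicate block (-3.49, adjusted p = 0.0878).

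**Figure D2:**
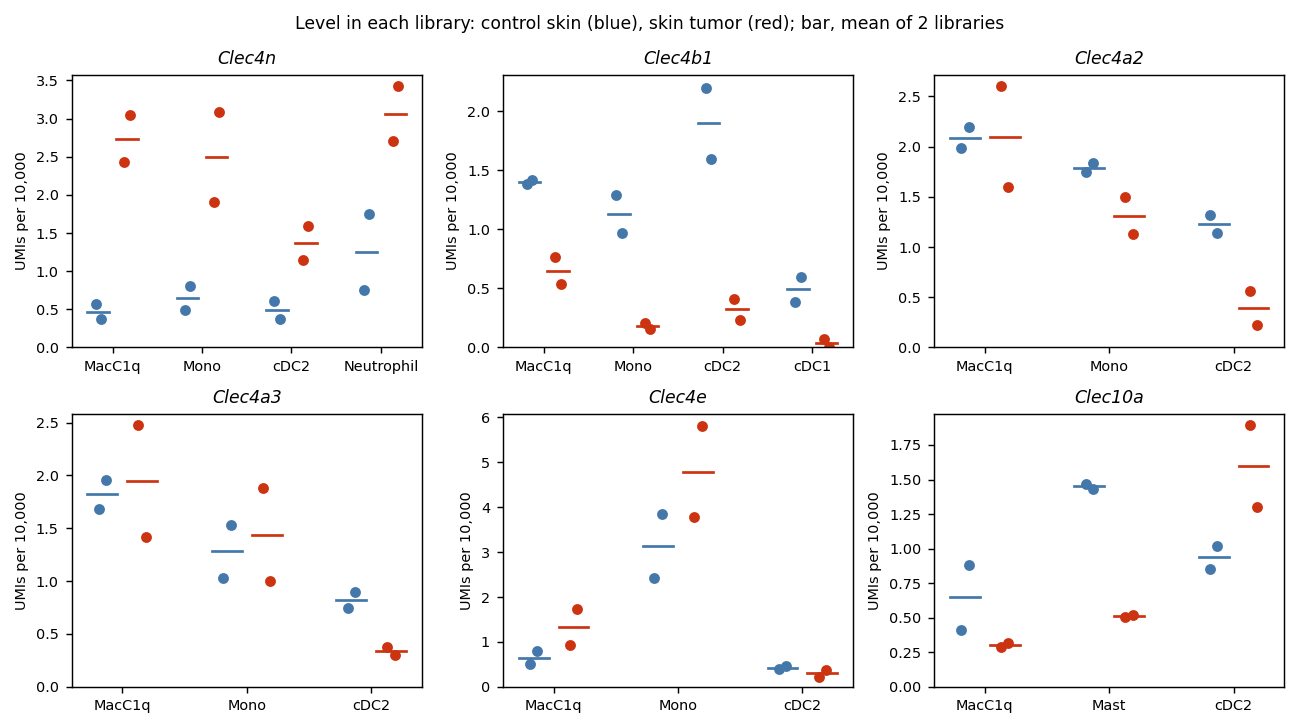
Level (UMIs per 10000, linear axes from 0) of 6 Clec genes by cell type (MacC1q, C1q macrophages; Mono, monocytes) in each library, blue for control skin and red for tumor, with bars at the mean of the 2 libraries. Clec4n lay higher in both tumors in all 4 cell types plotted, and Clec4b1 lower.

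Most of the Clec4 cluster was lower in the cDC2 of tumors. Of 15 members tested in cDC2, 6 were called lower, where 7.6% of all genes were. The median change was -0.81 over the members and 0.03 over all genes. Besides Clec4b1 these were Clec4a2 (1.32 and 1.14 against 0.559 and 0.221, log2 fold change -1.79, SE 0.36, adjusted p = 0.0263), Clec4a3 (0.741 and 0.893 against 0.377 and 0.305, -1.47, SE 0.23, adjusted p = 0.0137) and Clec4a1 (0.566 and 0.706 against 0.342 and 0.273, -1.26, SE 0.24, adjusted p = 0.0230). Clec4d was lower too (0.510 and 0.496 against 0.223 and 0.273, -1.28, SE 0.26, adjusted p = 0.0261), as was Clec4g outside the cluster (-3.72, SE 0.71, adjusted p = 0.0230). In all 6 genes both tumors lay below both control skins, which is no evidence beyond the calls that picked them. Clec4e, at 0.391 and 0.452 against 0.217 and 0.378, did not pass (-0.81, SE 0.34, adjusted p = 0.159), and Clec10a, at 0.853 and 1.02 against 1.90 and 1.30, did not pass either (0.55, SE 0.23, adjusted p = 0.150). Without control skin 1, or without control skin 2, the calls of Clec4a1, Clec4a3, Clec4a2 and Clec4d were lost, with changes between -1.94 and -1.11 and adjusted p between 0.0577 and 0.137. The call of Clec4d was lost too without tumor 1 (-1.05, adjusted p = 0.0879), without cycling cells (-0.95, adjusted p = 0.0706) and with all deposited cells (-1.32, adjusted p = 0.0552), and that of Clec4g without control skin 1 (-2.81, adjusted p = 0.127).

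Genes of other cell types moved in the cDC2 gate along with these. Of the 12 genes that gate macrophages and monocytes, 11 were tested in cDC2, of which 3 were called higher (Fcgr1, Ly6c2 and Plac8) and 3 lower (Lyz2, Adgre1 and Csf1r). Lyz2 stood at 39.9 and 42.3 in control skin and at 6.31 and 11.2 in tumors, so that the 12 genes summed to 48.6 and 51.4 against 23.1 and 24.8. Without Lyz2 they summed to 8.74 and 9.10 against 16.8 and 13.6. Chil3 was not counted in cDC2 of control skin 1. Cd207, the Langerhans cell lectin, was counted in cDC2 of control skin at 3.28 and 1.34 and was at 0.0116 and 0 in tumors. Their part in the Clec changes was not tested. In cDC1 the 12 genes summed to 15.3 and 22.9 against 9.64 and 5.48, and 1 of 7 tested (Lyz2) was called lower. The paper also counts Cd207 among the markers of cDC1, so in this gate it need not stand for Langerhans cell RNA. In cDC1 Cd207 went from 13.9 and 5.77 to 0.0360 and 0 (log2 fold change -8.58, edgeR's quasi-likelihood test, adjusted p = 0.00539). There 4 of 12 dissociation genes were called lower, where 3.3% of all genes were. The part of these genes in the fall of Clec4b1 in cDC1 was not tested.

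Of the genes called lower in cDC2, Clec4d had a change of -0.73 (SE 0.56) in C1q macrophages and did not pass. Clec4a1, Clec4a3 and Clec4a2 had changes of -0.13, -0.13 and -0.22 there, with SEs between 0.24 and 0.33 and tumors on both sides of the control skins. The intervals of 95% ran from -0.90 to 0.65, from -0.76 to 0.49 and from -0.79 to 0.36. In monocytes Clec4a3 had a change of 0.07 (SE 0.34) and Clec4a1 of 0.28 (SE 0.39). Clec4a2 was lower in both tumors there without passing (-0.51, SE 0.22, adjusted p = 0.406, 95% interval from -1.02 to -0.0047). The tumor effects of 2 cell types were compared in 1 model with the library as a block. Between cDC2 and C1q macrophages 5 of 17 members were called, where 3.02% of all genes were. Clec4a2, Clec4a3, Clec4b1 and Clec4e had the lower log2 fold change in cDC2 and Clec10a the higher one. Among the genes lower in cDC2, Clec4a1 was not called in this comparison (difference -1.20, adjusted p = 0.0645). Neither were Clec4d (-0.09, adjusted p = 0.960) and Clec4g (0.09, adjusted p = 0.960). Between cDC2 and monocytes 1 of 17 was called, Clec4a3 (difference -1.61, adjusted p = 0.0431), where 2.22% of all genes were. Between C1q macrophages and monocytes 0 of 15 were called by edgeR, where 0.0593% of all genes were. An unadjusted p under 0.05 was found for 7 of the members, with no other tool run. The share of all genes with such a p was not computed for this comparison, so the 7 have no background. The 3 comparisons share cell types and are not independent.

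**Figure D3:**
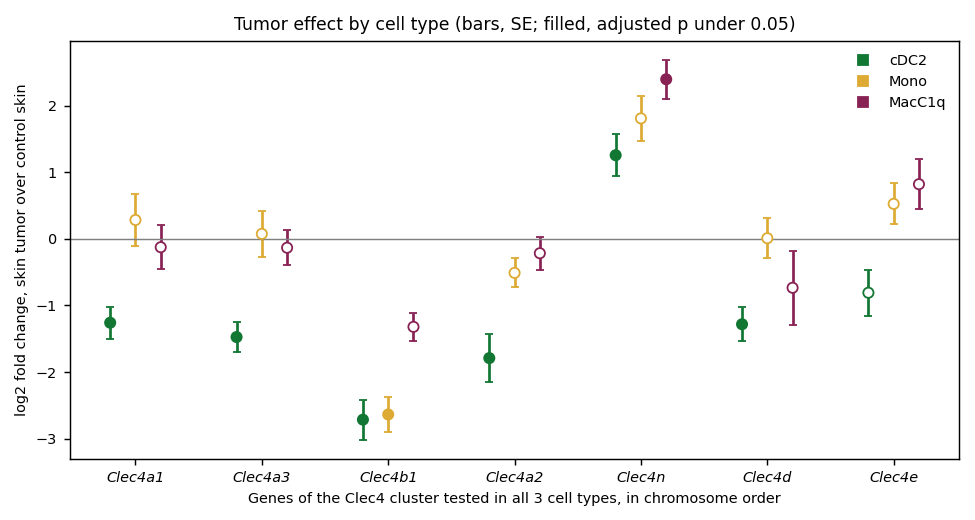
Log2 fold change of tumor over control skin (points) with its SE (bars) for the 7 genes of the Clec4 cluster tested in cDC2, monocytes and C1q macrophages, in chromosome order, filled where the adjusted p was under 0.05. In cDC2 the genes other than Clec4n and Clec4e lay between -2.71 and -1.26, whereas Clec4n lay above 0 in all 3 cell types.

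In the neutrophil gate, which holds the highest levels of the family, 0 of 8 members were called by edgeR, where 0.0% of all genes were. DESeq2 called 0 of them too, and 1 (Clec4n) had an unadjusted p under 0.05. Clec4d had a change of -0.32 (SE 0.27, 95% interval from -0.93 to 0.29) and Clec4e of -0.33 (SE 0.29, from -0.97 to 0.32). No member was called either in mast cells (2.2% of all genes were), regulatory T cells (5.83%), dendritic epidermal T cells (0.0%), CD8 T cells (12.5%), CD4 T cells (10.0%) or NK cells (3.71%). Over these 7 cell types 5 of 26 tests had an unadjusted p under 0.05. Among all genes 782 of 3776 had such a p in mast cells, 152 of 3411 in neutrophils and 1316 of 6395 in regulatory T cells. It was 837 of 9825 in dendritic epidermal T cells, 2204 of 7891 in CD8 T cells, 1883 of 7486 in CD4 T cells and 1036 of 6285 in NK cells. DESeq2 called 1 of the 26, Clec12a in dendritic epidermal T cells, where it called 284 of all genes. That gene rested there on 9, 6, 2 and 2 UMIs, and the few tumor cells of this gate had less Trdc (22.9 and 23.1 against 7.38 and 17.8) and Cd3e (14.2 and 14.2 against 3.86 and 8.40), with Ly6c2 at 15.3 in tumor 1 and at 0.125 or less in the other libraries. Clec2d, the ligand, did not pass in CD8 T cells or monocytes. It was lower in both tumors in CD8 T cells (-0.78, SE 0.26, adjusted p = 0.0806) and higher in both in monocytes (0.390 and 0.391 against 1.23 and 0.738, 1.27, SE 0.30, adjusted p = 0.143).

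The gate of non-immune cells, which the sort should remove, held 25, 37, 27 and 72 cells with fibroblast, keratinocyte or endothelial genes. Of 4 members tested, 3 were called lower in tumors, where 17.4% of all genes were: Clec2d (0.739 and 0.840 against 0.203 and 0.116, log2 fold change -2.66, SE 0.38, adjusted p = 0.00387), Clec2g (-4.58, SE 1.24, adjusted p = 0.0335) and Clec16a (0.357 and 0.386 against 0.0903 and 0.183, -1.63, SE 0.43, adjusted p = 0.0304). The gate mixes cell types and held different ones in the 2 tissues. Krt14 of keratinocytes stood at 21.4 and 33.8 in control skin and at 0 and 0 in tumors, and Col3a1 of fibroblasts at 0.115 and 0.299 against 12.8 and 16.1. Langerhans cell RNA moved with them, Cd207 from 18.2 and 9.14 to 0 and 0 and H2-Aa from 24.6 and 17.8 to 2.61 and 0.941. Their part in the 3 calls was not tested. The call of Clec2g, which rests on 10 and 39 UMIs in control skin and 4 and 0 in tumors, was lost without tumor 2 (-2.72, adjusted p = 0.0967) and with all deposited cells (-4.35, adjusted p = 0.0505). The call of Clec16a was lost without control skin 1 (-1.74, adjusted p = 0.0542), control skin 2 (-1.58, adjusted p = 0.0886) or tumor 1 (-1.24, adjusted p = 0.0851), and with DESeq2, doubled gate minimums or no cycling cells (adjusted p between 0.0550 and 0.0629).

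Over all CD45+ cells of a library, pooled, the members summed to 3.68 and 5.57 in control skin and 12.1 and 10.8 in tumors. In such sums more cells of a type and more RNA per cell cannot be told apart. Of 24 members tested, 4 were called higher, where 9.33% of all genes were, and 3 lower, where 14.1% were. Clec4n rose from 0.232 and 0.287 to 1.67 and 2.13 (log2 fold change 2.71, SE 0.20, adjusted p = 0.00611). Clec5a (0.0766 and 0.0749 against 0.281 and 0.192, 1.49, SE 0.24, adjusted p = 0.0226), Clec12a (0.195 and 0.354 against 1.21 and 0.754, 1.68, SE 0.40, adjusted p = 0.0457) and Clec2e (2.69, SE 0.63, adjusted p = 0.0457) rose as well. Clec2e reached the minimum of 50 UMIs only through the tumors (6 and 4 against 58 and 12 over all deposited cells). Its selection and its call are therefore not independent. Clec4f was counted with 76 and 55 UMIs in control skin and 1 and 2 in tumors. The ratio of the pooled levels was 54.0, with an exact counting interval from 18.1 to 265. That interval covers counting error only and not the spread between libraries. The quasi-likelihood test of edgeR gave a log2 fold change of -5.72 (95% interval from -7.645 to -3.789, adjusted p = 0.0150). Langerhans cells, which held 56.6% and 69.1% of the Clec4f UMIs in control skin, numbered 1 and 6 in the tumor libraries. Clec4g was lower (0.0195 and 0.0195 against 0.00243 and 0.00369, -2.85, SE 0.42, adjusted p = 0.0195), as was Clec16a (0.418 and 0.376 against 0.254 and 0.247, -0.82, SE 0.13, adjusted p = 0.0209). Clec4f (120 and 74 against 1 and 2 UMIs over all deposited cells) and Clec4g (144 and 92 against 17 and 15) reached the minimum only through control skin. Their selection and their calls are likewise not independent. Clec4b1, lower within the dendritic cells and monocytes of tumors, had a change of -0.08 (SE 0.34) over all cells. All 7 calls were lost without control skin 1 and all 7 without control skin 2, with adjusted p between 0.0665 and 0.313. Without tumor 1 the calls of Clec2e (2.06, adjusted p = 0.117) and Clec12a (1.27, adjusted p = 0.0745) were lost too. Clec2e was lost as well with a replicate block, DESeq2, no low-count filter, all deposited cells and without cycling cells (adjusted p between 0.0511 and 0.0891), Clec12a with a block (adjusted p = 0.0891) and without cycling cells (adjusted p = 0.0505), and Clec16a with a block (adjusted p = 0.0513).

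The cell types that carried a member's UMIs differed between tissues. C1q macrophages held 76.2% and 44.4% of the Clec4n UMIs of the tumor libraries and 5.79% and 8.98% of those of control skin, where Langerhans cells held 40.3% and 29.4%. For Clec4b1, C1q macrophages held 85.9% and 56.6% in tumors, and cDC2, the cell type with the highest level in control skin, 4.67% and 2.29%. Clec4d was spread over neutrophils (16.2% to 28.1% over the 4 libraries), C1q macrophages (9.63% to 30.1%) and monocytes (11.4% to 21.1%). Cells that met no gate held between 3.82% and 52.7% of the UMIs of Clec4d, Clec4e, Clec4n, Clec4b1 and Clec4a2, the least in tumor 1.

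**Figure D4:**
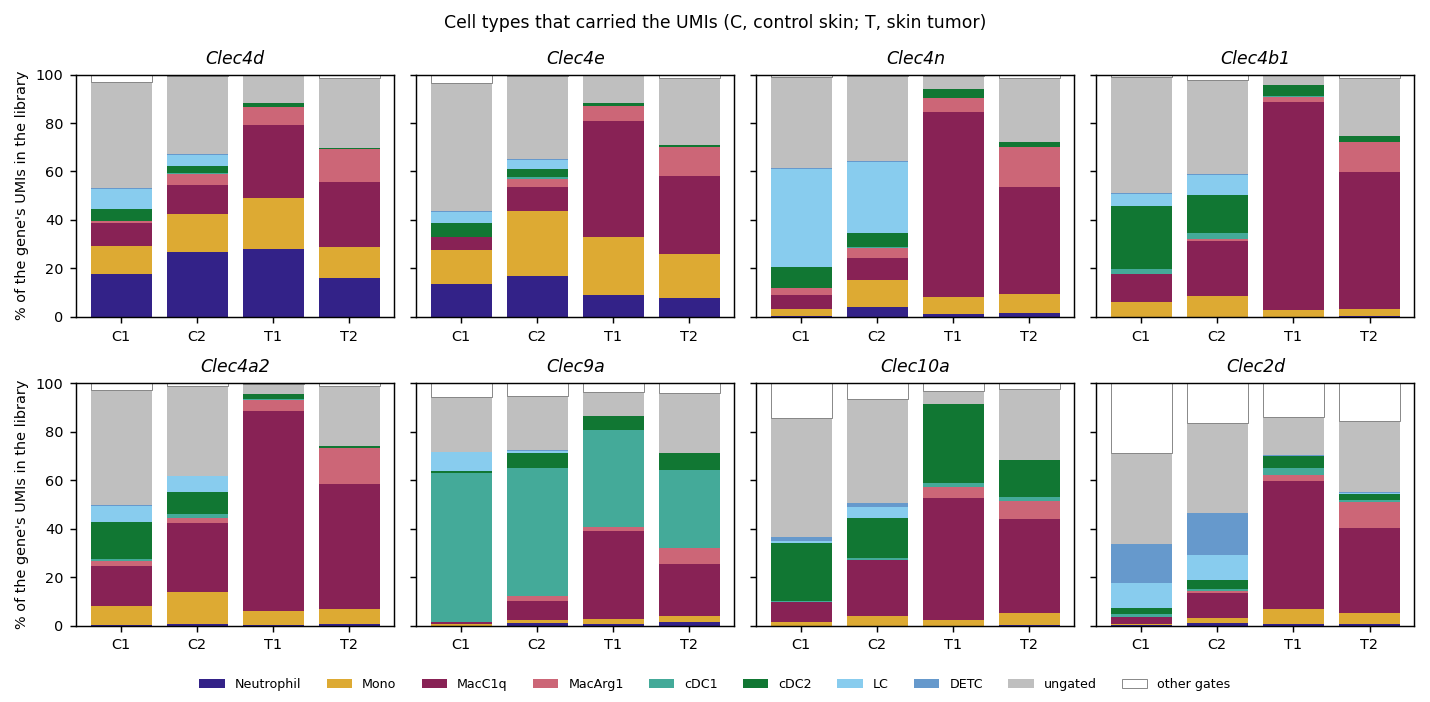
Share of a gene's UMIs (percent of its total in a library, axis from 0 to 100) by cell type for 8 Clec genes in control skins (C1, C2) and tumors (T1, T2), with Mac for macrophages, Mono for monocytes, LC for Langerhans cells and DETC for dendritic epidermal T cells. C1q macrophages hold the largest block of Clec4n, Clec4b1 and Clec4a2 in both tumors, and cDC1 that of Clec9a in both control skins.

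The genes that pass on or answer these receptors were counted as whole lists, to be read beside the shares of all genes called. In cDC2 these were 7.6% lower and 4.9% higher, in monocytes 0.513% higher and in C1q macrophages 0.278% higher. DESeq2 called 355 of 11501 genes in C1q macrophages and 154 of 8570 in monocytes. An unadjusted p under 0.05 was found for 1490 and 1037 of them. Of 17 signalling partners, 0 were called by edgeR and 0 by DESeq2 in C1q macrophages and in monocytes (17 tested and 3 with an unadjusted p under 0.05 in each), and in cDC2 3 of 16 were called lower and 1 higher. Syk, the kinase of the activating branch, fell from 6.06 and 7.39 to 3.30 and 3.15 in cDC2 (log2 fold change -1.29, SE 0.17, adjusted p = 0.0107), with Vav1 (-1.01) and Vav3 (-1.02), and Ptpn6, the phosphatase of the inhibitory branch, rose from 0.566 and 0.706 to 1.48 and 1.29 (0.89, SE 0.20, adjusted p = 0.0368). The adaptors Fcer1g and Tyrobp had changes between -0.45 and 0.20 in cDC2, monocytes and C1q macrophages, and none passed. Of 14 cytokine targets of Card9 signalling, 0 of 13 tested were called in C1q macrophages by edgeR (3 by DESeq2, 7 with an unadjusted p under 0.05), 1 of 11 higher in monocytes (Il1b, from 1.79 and 3.39 to 19.5 and 28.9, 3.13, SE 0.36, adjusted p = 0.0206) and 2 of 8 lower in cDC2 (Cxcl2 and Egr2). Of 27 C-type lectins with other symbols, 7 of 16 tested were called lower in cDC2 and 2 higher. Mrc1, the mannose receptor, fell from 6.27 and 6.61 to 1.14 and 1.35 there (-2.61, SE 0.19, adjusted p = 0.00346). Cd209a, a lectin that also gates cDC2, fell from 9.44 and 8.36 to 4.69 in both tumors (-1.15, SE 0.16, adjusted p = 0.0116). Of 5 receptors of Clec2 ligands, Klrb1b, the receptor of Clec2d, was the 1 tested in cDC2, cDC1, C1q macrophages and monocytes. It was lower in cDC2 (0.965 and 1.39 against 0.469 and 0.389, -1.68, SE 0.25, adjusted p = 0.0127) and cDC1 (1.31 and 1.52 against 0.414 and 0.174, -2.32, SE 0.38, adjusted p = 0.0281). In cDC1 3.3% of all genes were called lower. In C1q macrophages and monocytes Klrb1b had changes of 0.92 and 0.98 without passing. In NK cells 0 of 4 receptors were called, where 3.71% of all genes were. Klrb1b stood there at 1.83 and 1.97 against 1.12 and 1.04 (-0.82, SE 0.22, adjusted p = 0.0759). Klrb1f had a change of -0.50, Klrb1a of 0.72 and Klrb1c, which also gates NK cells, of 0.87. Of 12 genes of the response to dissociation, 5 were called higher in cDC2, 3 in monocytes and 1 in C1q macrophages, with no gene lower in these 3. Their part in the Clec changes was not tested.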

How the data were processed

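Immune cells (CD45+/DAPI-) of 2 control skins and 2 skin tumors were measured. The values deposited by the authors are raw UMI counts, 1 matrix of genes and cells a library, made with Cell Ranger (7.1.0 in the submitters' notes, 7.0.1 in the file headers) on mm10. The handling of intronic reads is not given in the sources used here. Cells with at least 1000 UMIs, 100 genes, at most 15% mitochondrial UMIs and a log10 ratio of genes to UMIs of at least 0.8 were kept, with genes found in at least 3 cells. Doublets, 453 in all, were removed by Scrublet score (scanpy 1.11.5) at a rate of 1% per 1000 cells. Cells were gated by fixed UMI minimums of marker genes. The share of cells exactly at a minimum ran from 1.4% in C1q macrophages to 41.8% in regulatory T cells. Counts were summed per library and gate and tested with edgeR 4.0.16 (quasi-likelihood, TMM factors, filterByExpr) in gates with at least 10 cells in every library. DESeq2 1.42.0 was an alternative. Each library is 1 skin or tumor, so p-values measure the spread between these samples. The SE was the log2 fold change over the root of the F statistic, and intervals used the t distribution. The tests were also run on simulated counts, drawn with the spread fitted to these data and planted log2 fold changes of size 2. Smaller changes were not simulated. Named genes are the members with an adjusted p under 0.05 in a gate, the leading member of each gate and members reaching 1 UMI per 10000. The full genotype of the tumor model is not reported here. The members, gates and lists were chosen with earlier results of these data known.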

Additional observations from a re-analysis of the deposited data

Results flagged for a closer look

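Differences in the tumor effect between cell types were tested in 1 edgeR model per pair of cell types, with the library as a block and Benjamini-Hochberg adjustment over all genes. A negative difference means a lower log2 fold change (tumor over control skin) in cDC2. Between cDC2 and C1q macrophages, Clec4a2 differed by -1.68 (adjusted p = 0.0131), Clec4b1 by -1.43 (adjusted p = 0.0243), Clec4a3 by -1.39 (adjusted p = 0.0220), Clec4e by -1.54 (adjusted p = 0.0211) and Clec10a by 1.84 (adjusted p = 0.0192). For Clec4e and Clec10a neither cell type alone passed the test, and their changes had opposite signs: Clec4e had -0.81 in cDC2 and 0.82 in C1q macrophages, and Clec10a 0.55 and -1.36. Clec4b1 had changes below 0 in both cell types. Between cDC2 and monocytes, Clec4a3 differed by -1.61 (adjusted p = 0.0431), with changes of -1.47 and 0.07. In all 6 the difference rests on 2 libraries a group, and the gate of cDC2 changed in Lyz2 (39.9 and 42.3 against 6.31 and 11.2 UMIs per 10000) along with them. Its part was not tested.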

How the results depend on the processing

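The main counts were 2 tests of a member in a cell type called higher and 11 lower, and over all CD45+ cells 4 members called higher and 3 lower. With DESeq2 they were 4 and 12, and 8 and 3. Without the filter on low counts 9 tests were called higher and 19 lower. With doubled gate minimums 1 test was called higher and 9 lower. Without cycling cells 2 were called higher and 7 lower, and 2 members higher over all cells. The set of tests changed with the filter, the gate minimums and the cells kept, so these counts have no common denominator. Shares of all genes called under these settings are not given here. Clec4b1 in cDC1 was not tested without cycling cells or with doubled gate minimums. Clec2g in non-immune cells was not tested without cycling cells. Leaving out a library in turn gave 0 to 7 tests higher and 5 to 17 lower, and over all cells 0 to 9 members higher and 0 to 3 lower. Deviations of same-numbered libraries had r = 0.00739 over 1897 genes. That gave no sign of pairing, but with 2 libraries a group it cannot exclude a shared batch. With a replicate block the counts were 2 and 12, and 4 and 2, for partly different genes. The block ended the calls of Clec4n in cDC2, Clec4b1 in cDC1 and, over all cells, Clec2e, Clec12a and Clec16a. It added Clec4n in monocytes (adjusted p = 0.0294), Clec4b1 (adjusted p = 0.0124) and Clec10a (adjusted p = 0.0388) in C1q macrophages and, over all cells, Clec4d (adjusted p = 0.0415) and Clec4e (adjusted p = 0.0348). RLE factors, keeping doublets, all deposited cells and immune gates only (added after seeing the data) left every count within 1.5 times. Over 20 changes of a named member and 229 alternatives, 176 kept the call, 53 lost it and 0 changed direction. With one library of a group left out, the lone library was assumed to vary like the others. The libraries hold 12 to 58 cells of several gates, and levels near 1 UMI limit what can be detected.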
